A study of Mus musculus with 6 samples.

Results

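The genes described here encode the ligands, receptors, R-spondins and selected intracellular effectors and targets of WNT signalling. They were taken by name, as every gene whose symbol follows the Wnt or Fzd numbering plus a fixed set. That set holds receptors, R-spondins, ubiquitin ligases, TCF/LEF factors and feedback genes. No measured value entered the rule, but earlier results of these data were known when the members were chosen. Of the 19505 named genes on the array, 49 were members, each with 1 probe set. Rnf43, Tcf7 and Ctnnb1 belong to the rule and were not analysed here. RNA was measured in whole adrenal glands of female mice aged 2 months, on 1 Affymetrix whole-transcript array per animal. The 3 control mice were Mst1flox/flox;Mst2flox/flox, with recombination sites around part of the genes for the kinases MST1 and MST2, which restrain the coactivators YAP and TAZ in the Hippo pathway. The 3 mutant mice were Mst1flox/flox;Mst2flox/flox;Nr5a1-cre, and so carried the same floxed alleles together with a Cre driven by Nr5a1, a gene of steroid-producing cells. The controls carried no Cre, so an effect of Cre itself and an effect of losing the kinases cannot be told apart. Cells of the gland that do not use Nr5a1, such as vessel, fat and chromaffin cells, are not targeted by this Cre, and their RNA is part of each sample.

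WNT proteins are secreted lipid-modified ligands that bind Frizzled receptors together with a co-receptor. With LRP5 or LRP6 they stabilise beta-catenin, which acts with TCF/LEF factors on target genes. With ROR or RYK receptors they act on cell shape and movement without beta-catenin. R-spondins bind LGR receptors and hold back ZNRF3 and RNF43, ubiquitin ligases that remove Frizzled from the cell surface. In the adrenal gland, R-spondin 3 from the capsule and WNT4 made in the zona glomerulosa, the outer zone of the cortex, are known to maintain that zone.

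Over all arrays the median log2 signal lay between 6.76 and 6.83. The 9 steroid cortex markers had array means of 17.92 to 18.12, and 7 of 8 kidney markers stayed inside the background range in either group. That range is the span of 23 background probe sets, 2.53 to 7.32 log2 units, and a group mean inside it is called dim here. Stk4, which encodes MST1, differed by -0.32 log2 units (SE 0.19, limma adjusted p = 0.623) with overlapping groups. Whether its probes fall in the deleted part of the gene is not stated in the labels, so the genotype cannot be checked from it. Stk3, the gene for MST2, was not analysed here.

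Mutant glands were compared with control glands to ask which WNT genes differed, and no member passed the test. Of the 49 members 0 passed a limma adjusted p of 0.05, where 0.0721% of all 22206 probe sets did, and the smallest adjusted p among the members was 0.331. At an unadjusted p under 0.05 there were 5 members (limma), all higher in mutants (5.42% of all probe sets were called in that direction): the ligand gene Wnt5a, the Frizzled genes Fzd2 and Fzd7, the receptor gene Ror1 and the repressor gene Tcf7l1. These are 10.2% of the members, beside 10.4% of all probe sets, so over all members their share is near the background. All 5 were among the 26 members not dim in at least 1 group, 19.2% of these beside 13.6% of the 10355 such probe sets. Of the 10355, 739 were higher and 667 lower at that limma p. Tcf7l1 entered the 26 only through its mutant mean. The 3 mutants lay entirely above the 3 controls for 7 members and entirely below for 1, beside 8% and 8.36% of all probe sets. These 8 genes are 16.3% of the members, beside 16.4% of all probe sets, which is again near the background. The count of 5 became 8 without control 3 (16.3% of members, beside 11.6% of all probe sets), 7 without control 2 (14.3% beside 8.17%) and 3 without mutant 2 (6.12% beside 9.08%). With fewer animals, groups separate more easily by construction. The count of 8 became 10 and 16 without controls 1 and 2, 20.4% and 32.7% of members, beside 24.1% and 25% of all probe sets. It became 15 without control 3 and 15 without mutant 1, both 30.6%, beside 30.2% and 25.5%. Without mutants 2 and 3 it became 12 and 13, 24.5% and 26.5%, beside 26.6% and 27.8%.

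Most members were higher in mutants, by small amounts. Fitted log2 changes (mutant minus control) were above 0 for 36 of 49 members, beside 48% of all probe sets, and their median was 0.14, beside -0.01. No test was run on this median. Changes ran from -0.50 for Lgr5 to 0.72 for Ror1, so every fitted change was smaller than 2-fold. The SE of a single member ranged from 0.14 to 0.40 log2 units. Dim genes made up 23 of the 49, with 18 of them above 0 and a median change of 0.09. The other 26 members were above the background range in at least 1 group, Tcf7l1 and Lef1 only through the mean of the mutants.

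**Figure D1:**
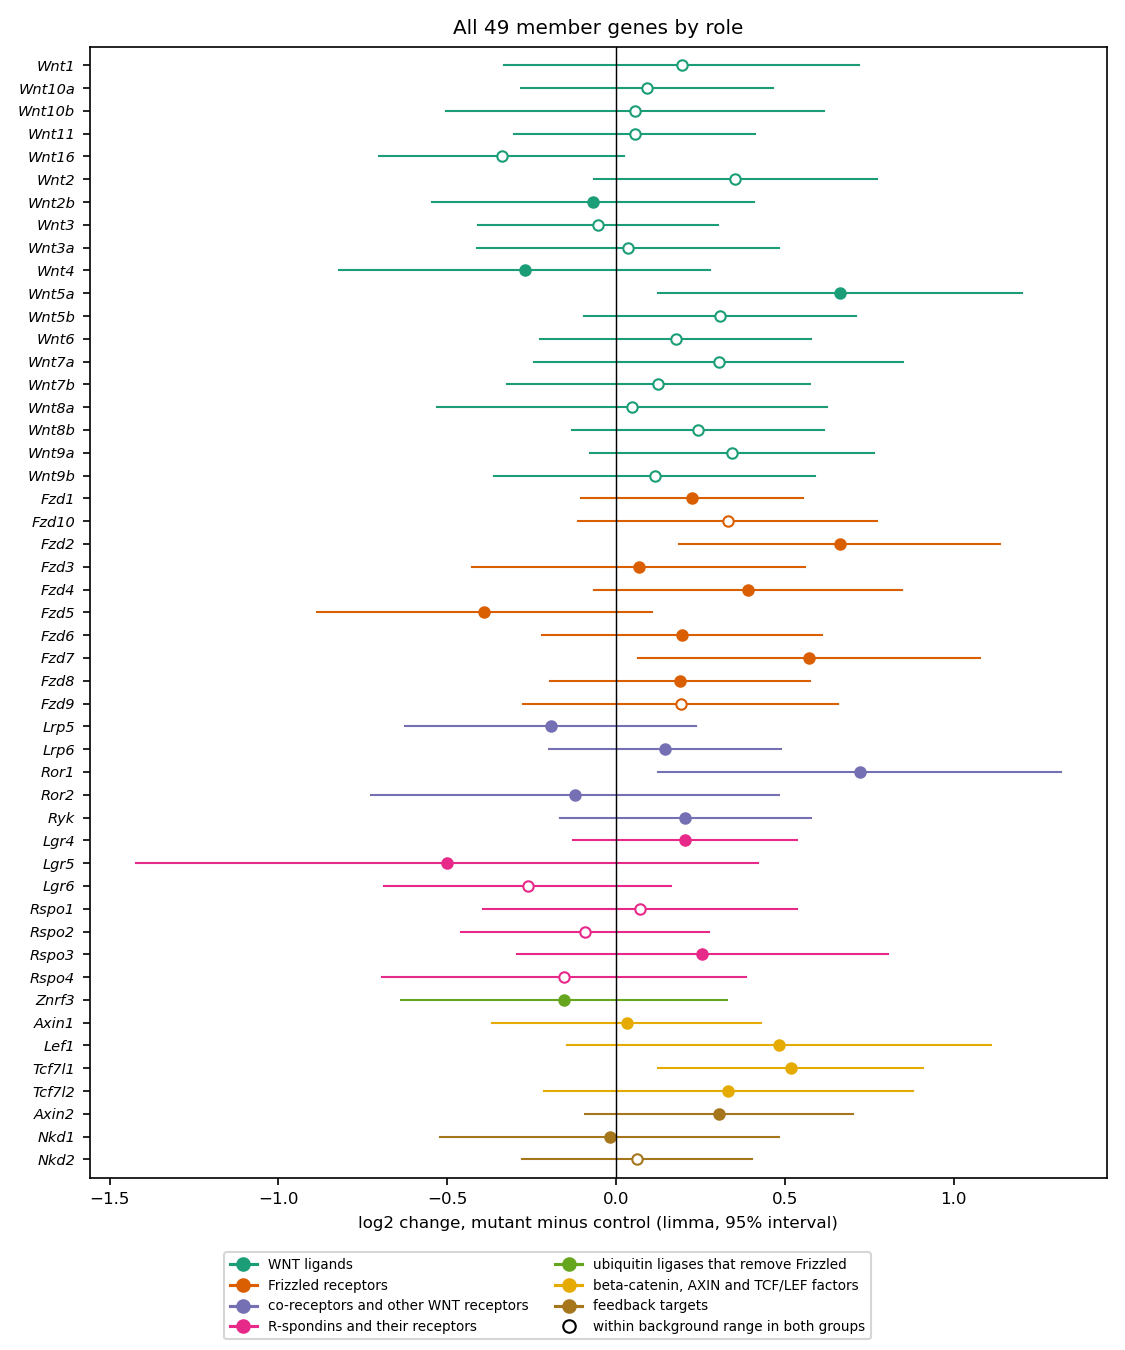
Each point is the log2 change of 1 member gene (mutant minus control) and each line its 95% interval from limma, coloured by role, with open points for genes dim in both groups. Points lie between -0.50 and 0.72, most of them right of 0, and the intervals of Wnt5a, Fzd2, Fzd7, Ror1 and Tcf7l1 do not include 0 before adjustment.

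Among the 19 WNT ligand genes, 3 gave a signal above the background range: Wnt2b, Wnt4 and Wnt5a. Wnt5a, which encodes a ligand best known for beta-catenin-independent signalling, measured 7.88, 7.61 and 7.29 log2 units in controls 1, 2 and 3 and 7.86, 8.64 and 8.27 in mutants 1, 2 and 3. Mutants 2 and 3 lay above all controls, while mutant 1 lay just under control 1, so the groups overlapped by that animal. The log2 change was 0.66 (SE 0.24, 95% interval 0.12 to 1.202), a measured 1.58-fold, with a limma adjusted p of 0.388.

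Wnt4, the beta-catenin-activating ligand of the zona glomerulosa, measured 11.51, 11.42 and 11.78 in controls and 11.12, 11.82 and 10.95 in mutants. Mutants 1 and 3 were below every control and mutant 2 was the highest of the 6 animals. Its change was -0.27 (SE 0.24, limma adjusted p = 0.759), -0.53 without mutant 2 and -0.10 without mutant 3. In the fit without mutant 2 its unadjusted limma p was 0.022. Beside it, the 7 zona glomerulosa markers had array means of 13.52 to 13.82 in controls and 13.05 to 13.37 in mutants. Of the 7, 6 were lower and 0 passed the adjusted p. Agtr1b, Hsd3b6 and Vsnl1 were lower with groups apart (-1.21, -1.003 and -1.11), and the groups of Cyp11b2, Dab2 and Nr4a1 overlapped. Shh went the other way, higher by 0.71 (SE 0.21) with groups apart. The part of the zone's cells in the Wnt4 value was not tested. In a whole gland, fewer cells of a type and less RNA per cell cannot be told apart.

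Wnt2b, a ligand gene of mesenchymal tissues, measured 11.57, 11.08 and 11.78 in controls and 11.56, 11.47 and 11.20 in mutants, a change of -0.07 (SE 0.21, 95% interval -0.55 to 0.41). The groups overlapped, and the controls held both the lowest and the highest of the 6 animals.

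The other 16 ligand genes were dim in both groups, with 14 changes above 0, a median of 0.12 and limma adjusted p from 0.514 to 0.971. At such signals a change can be understated. Wnt16 was the ligand gene whose mutants all lay below the controls, at 5.04, 4.64 and 4.81 in controls and 4.44, 4.44 and 4.58 in mutants (log2 change -0.34, SE 0.16, limma adjusted p = 0.514). Wnt11 measured 3.97 to 4.26 in controls and 4.04 to 4.32 in mutants.

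Frizzled genes, which encode the receptors with the WNT-binding cysteine-rich domain, were higher in 9 of 10 cases, with 0 past the adjusted p. Their median change was 0.21, and in 4 of them the mutants lay entirely above the controls, beside 8% of all probe sets: Fzd1, Fzd2, Fzd4 and Fzd10. Fzd2, a receptor for WNT5A in several tissues, measured 8.09, 8.13 and 8.50 in controls and 9.28, 8.73 and 8.69 in mutants. All mutants were above all controls, mutant 1 by the widest margin. The change was 0.66 (SE 0.21, 95% interval 0.19 to 1.14), with a limma unadjusted p of 0.0121 and an adjusted p of 0.331, the smallest among the members.

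Fzd7, a receptor known from stem and progenitor cells, measured 9.87, 9.93 and 10.09 in controls and 10.60, 10.93 and 10.08 in mutants. Mutants 1 and 2 stood above the controls, and mutant 3 was almost level with control 3. Its change was 0.57 (SE 0.22, limma adjusted p = 0.428), 0.80 without mutant 3 and 0.37 without mutant 2.

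Fzd4, a receptor of endothelial cells that also binds norrin, measured 11.20, 11.14 and 11.26 in controls and 12.01, 11.34 and 11.42 in mutants. The groups did not overlap and mutant 1 stood apart: the change of 0.39 (SE 0.20, limma adjusted p = 0.547) was 0.18 without that animal. Beside it, the 10 endothelial markers had array means of 11.89 to 12.14 in controls and 12.34 to 12.41 in mutants, with 9 of 10 higher and 0 past the adjusted p. The part of endothelial RNA in the Fzd4 value was not tested.

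Fzd1 measured 8.77, 8.90 and 8.91 in controls and 9.22, 9.001 and 9.03 in mutants, a change of 0.22 (SE 0.14, limma adjusted p = 0.654) without overlap. Fzd10 was dim, at 4.62, 4.60 and 4.05 against 4.88, 4.76 and 4.62 (change 0.33, SE 0.19, and 0.14 without control 3), with its lowest mutant almost level with its highest control. Fzd5, a receptor linked to epithelial cells, was the Frizzled gene with a change below 0, at 10.35, 9.82 and 9.52 in controls and 9.59, 9.51 and 9.42 in mutants. Control 1 stood well above the other 5 animals, and the change of -0.39 (SE 0.22, limma adjusted p = 0.593) came with overlapping groups. Fzd3, Fzd6, Fzd8 and Fzd9 had changes of 0.07 to 0.20, with overlap.

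**Figure D2:**
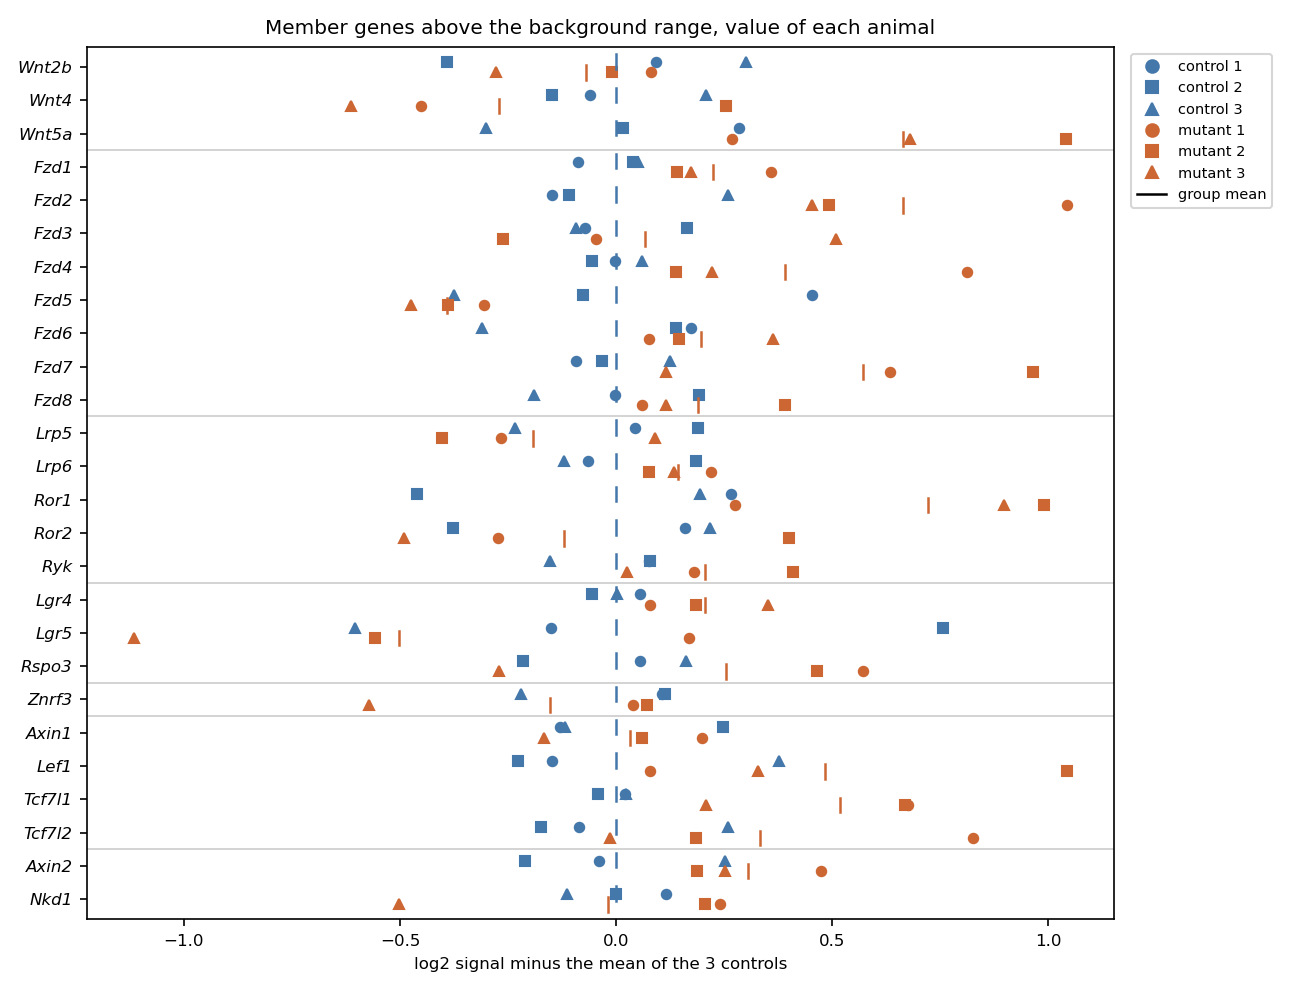
Each symbol is 1 animal's log2 signal minus the mean of the 3 controls for the 26 member genes above the background range, with short vertical lines at the group means and grey lines between roles. For Fzd1, Fzd2, Fzd4, Ror1, Lgr4 and Tcf7l1 the 3 mutants lie right of all controls. Mutant 1 is the farthest right for 9 genes, among them Fzd2, Fzd4 and Tcf7l2.

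Of the 5 genes for co-receptors and other WNT receptors, Ror1 had the largest change. Ror1 encodes a receptor pseudokinase that binds WNT5A and is abundant in embryonic mesenchyme. It measured 8.57, 7.84 and 8.50 in controls and 8.58, 9.29 and 9.20 in mutants. Mutants 2 and 3 were well above the controls, and mutant 1 was only just above control 1. The change was 0.72 (SE 0.26, 95% interval 0.13 to 1.32), a measured 1.65-fold, with a limma adjusted p of 0.394, and it was 0.49 without control 2, the lowest control. Ror2, the related WNT5A receptor gene, measured 8.06, 7.52 and 8.12 in controls and 7.63, 8.30 and 7.41 in mutants, a change of -0.12 (SE 0.26, 95% interval -0.73 to 0.48). The difference between the changes of Ror1 and Ror2 was not tested.

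Genes for the LRP co-receptors of the beta-catenin branch had changes of opposite sign, neither past the adjusted p. Lrp5 measured 11.89, 12.03 and 11.61 in controls and 11.57, 11.44 and 11.93 in mutants (change -0.19, SE 0.19, 95% interval -0.62 to 0.24). Lrp6 measured 12.52, 12.76 and 12.46 in controls and 12.80, 12.66 and 12.71 in mutants (change 0.14, SE 0.15, 95% interval -0.20 to 0.49). Both sets of animals overlapped. The change of Lrp5 was -0.09 without mutant 2, -0.10 without control 2, -0.31 without control 3 and -0.34 without mutant 3, and that of Lrp6 was 0.08 without control 3 and 0.24 without control 2. Ryk, a receptor gene of the pseudokinase kind, had a difference of 0.20 (SE 0.16), with mutants at 14.60, 14.83 and 14.45 and controls at 14.49, 14.50 and 14.27.

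R-spondin genes and their receptor genes showed no common direction, with 3 of 7 above 0 and 0 past the adjusted p. Rspo3, the R-spondin of the capsule, measured 11.94, 11.67 and 12.05 in controls and 12.46, 12.35 and 11.61 in mutants. Mutants 1 and 2 were the highest animals and mutant 3 the lowest, so the change of 0.26 (SE 0.24, limma adjusted p = 0.772) became 0.52 without mutant 3, 0.10 without mutant 1 and 0.15 without either mutant 2 or control 2. In the fit without mutant 3 its unadjusted limma p was 0.0255. Rspo1, Rspo2 and Rspo4 were dim in both groups, with changes of 0.07, -0.09 and -0.15. Rspo1 measured 6.70, 6.55 and 7.21 in controls and 6.99, 6.70 and 6.99 in mutants.

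Lgr4, an R-spondin receptor gene, measured 15.73, 15.62 and 15.68 in controls and 15.75, 15.86 and 16.02 in mutants. The groups did not overlap, with mutant 1 just above control 1, and the change was 0.20 (SE 0.14, limma adjusted p = 0.690), or 0.13 without mutant 3. Lgr5, a receptor gene that is itself a WNT target in other epithelia, had the widest spread of the members. It measured 9.87, 10.78 and 9.42 in controls and 10.19, 9.47 and 8.91 in mutants, a change of -0.50 (SE 0.40, 95% interval -1.42 to 0.42), which became -0.12 without control 2, -0.80 without control 3, -0.84 without mutant 1 and -0.19 without mutant 3. Control 2 was the highest animal and mutant 3 the lowest. Znrf3, the ubiquitin ligase gene that restrains WNT signalling and growth in the adrenal cortex, measured 12.20, 12.20 and 11.87 in controls and 12.13, 12.16 and 11.52 in mutants. Its change was -0.15 (SE 0.21, limma adjusted p = 0.854), with animal 3 the lowest of each group.

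The measured TCF/LEF genes all had changes above 0, and 0 passed the adjusted p. Tcf7l1, which encodes TCF3, mainly a repressor of WNT target genes, measured 7.13, 7.07 and 7.14 in controls and 7.79, 7.78 and 7.32 in mutants. The 3 controls lay close together, all inside the background range, and every mutant was above them. The change was 0.52 (SE 0.17, 95% interval 0.13 to 0.91), a measured 1.43-fold, with a limma unadjusted p of 0.0158 and an adjusted p of 0.358. As the controls were dim, this fold may be understated.

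Tcf7l2, which encodes TCF4, measured 12.84, 12.75 and 13.18 in controls and 13.75, 13.11 and 12.91 in mutants (change 0.33, SE 0.24, limma adjusted p = 0.694). Mutant 1 was the highest, the groups overlapped, and the change was 0.09 without mutant 1 and 0.51 without mutant 3. Lef1, a TCF/LEF gene that WNT signalling often activates, measured 7.08, 7.004 and 7.61 in controls and 7.31, 8.27 and 7.56 in mutants. Mutant 2 stood apart, and the change of 0.48 (SE 0.27, limma adjusted p = 0.605) became 0.20 without it. The control mean of 7.23 lay inside the background range, so this change may be understated. Axin1, the scaffold of the complex that degrades beta-catenin, differed by 0.03 (SE 0.17, 95% interval -0.37 to 0.43), with controls at 8.68, 9.05 and 8.69 and mutants at 9.01, 8.87 and 8.64.

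Genes that WNT signalling switches on as feedback gave no joint direction. Of the 6 measured target genes among the members, Axin2, Nkd1, Nkd2, Lef1, Znrf3 and Lgr5, 3 had changes above 0, their median was 0.02 and 0 passed at either an adjusted or an unadjusted p of 0.05 (limma). Axin2, the scaffold gene most used to read beta-catenin activity, measured 9.92, 9.75 and 10.21 in controls and 10.43, 10.14 and 10.21 in mutants. Mutants 2 and 3 lay within the range of the controls or at its upper end, and mutant 1 above it. The change was 0.30 (SE 0.17, limma adjusted p = 0.606), and its 95% interval of -0.09 to 0.70 spans from a 0.94-fold to a 1.63-fold level in mutants. The change was 0.20 without control 2 and 0.43 without control 3, with an unadjusted limma p of 0.0417 in the latter fit. Nkd1, which encodes an antagonist that binds Dishevelled, measured 9.54, 9.42 and 9.31 in controls and 9.66, 9.63 and 8.92 in mutants (change -0.02, SE 0.22). Mutants 1 and 2 were the highest animals and mutant 3 the lowest. Nkd2, the related gene, was dim in both groups, at 5.20 to 5.30 in controls and 5.19 to 5.49 in mutants.

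Promoter sequence was read beside the members' values because TCF/LEF factors bind near WNT target genes and TEAD factors, the DNA-binding partners of YAP and TAZ, near Hippo-controlled genes. RefSeq promoters of GRCm38.p6, from 250 bases before to 50 bases after a gene's start, were matched by symbol to 34 of the 49 members, with 41 promoters. A TCF/LEF motif (CTTTG with A or T at each of the next 2 positions, on either strand) was found in 6 of the 41 (14.6%), beside 16.9% of all 32851 promoters. The TEAD motif GGAATG, on either strand, was found in 2 of the 41 (4.88%), beside 14.7% of all. No overlap between the motifs was seen in the stretches printed here. Of the 13 named members above the background range that had a promoter, 4 held a motif before the start. These are shown with up to 30 bases on each side and the motif in capitals, all on the plus strand: Fzd7 at chr1:59481987-59482053, Lef1 at chr3:131156117-131156183, Tcf7l2 at chr19:55895277-55895320 and Lgr4 at chr2:109917439-109917524.
Fzd7: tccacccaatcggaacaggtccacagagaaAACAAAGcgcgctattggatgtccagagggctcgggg
Lef1: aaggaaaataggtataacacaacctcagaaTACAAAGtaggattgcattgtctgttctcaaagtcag
Tcf7l2: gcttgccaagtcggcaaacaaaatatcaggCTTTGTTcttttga
Lgr4: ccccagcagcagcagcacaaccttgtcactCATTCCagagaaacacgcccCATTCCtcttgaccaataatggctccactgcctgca
The capitals mark a TCF/LEF motif in the first 3, read on the opposite strand in Fzd7 and Lef1, and 2 TEAD motifs on the opposite strand in Lgr4. The Fzd7 match began 130 bases before the start, that of Lef1 147, that of Tcf7l2 14 and those of Lgr4 178 and 158. These genes had changes of 0.57, 0.48, 0.33 and 0.20, none past the adjusted p, and a match is a description of the letters, not a site.

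Other genes of the pathway were read from fixed lists, and 0 of 74 passed the adjusted p, while 9 (12.2%) had an unadjusted p under 0.05 (limma). That share is near the 10.4% of all probe sets, which is also the background for the counts of each list below. Ligand secretion was represented by Wls and Porcn. Wls, which carries WNT proteins to the cell surface, measured 11.23, 11.18 and 11.04 in controls and 11.91, 11.88 and 11.80 in mutants. The mutants formed a tight group above the controls, with a log2 difference of 0.71 (SE 0.14, limma adjusted p = 0.128, 95% interval 0.39 to 1.03). It passed the threshold without dim probe sets and with a signal-dependent variance trend, alone or beside a robust prior. Porcn, which attaches the lipid to WNT proteins, had a change of -0.22 (SE 0.17, limma adjusted p = 0.729).

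Of 16 genes for secreted and membrane antagonists 3 had an unadjusted p under 0.05, and 11 were above 0. Frzb, a secreted Frizzled-like protein that binds WNT, was lower in all mutants, at 16.33, 16.34 and 16.29 in controls and 15.32, 15.24 and 15.25 in mutants (limma adjusted p = 0.0529, just short of the threshold, which it passed in several alternative fits). Apcdd1, an inhibitor that is also a WNT target gene, was higher, at 10.46, 10.20 and 10.21 against 11.94, 11.69 and 10.89 (change 1.22, SE 0.26, limma adjusted p = 0.170). The groups of both genes were apart. Sfrp1, the other of the 3, was higher, at 11.73, 10.86 and 11.57 in controls and 12.74, 12.24 and 11.86 in mutants. Its groups did not overlap, and its change was 0.89 (SE 0.29, limma adjusted p = 0.348). The list of 14 target genes outside the members shares Apcdd1, Dkk1 and Notum with the antagonists. Of the 14, 10 were above 0 and 4 had an unadjusted p under 0.05 (limma), Apcdd1 among them. Sox9 (change 0.67, SE 0.23, limma adjusted p = 0.375) was dim in both groups. Tnfrsf19 measured 10.84, 10.67 and 10.63 in controls and 10.997, 11.13 and 11.08 in mutants, without overlap (change 0.36, SE 0.14, limma adjusted p = 0.441). One of the 4 was lower in mutants: Cd44, which encodes a cell-surface receptor for hyaluronan, at 13.37, 13.21 and 13.94 in controls and 12.47, 12.79 and 13.15 in mutants. Its groups did not overlap, and the difference was -0.70 (SE 0.24, limma adjusted p = 0.376).

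The 10 planar polarity genes were led by Ptk7, a pseudokinase receptor gene of WNT-dependent cell polarity, which measured 5.59, 6.38 and 6.06 in controls and 6.86, 7.51 and 6.67 in mutants (change 1.002, SE 0.27, limma adjusted p = 0.267). Its mutants lay above its controls, and both group means were dim. Celsr3, a polarity cadherin gene, had a change of -0.27 (SE 0.15). Of 35 cytoplasmic and nuclear core genes 1 had an unadjusted p under 0.05, Chd8, which encodes a remodeller that binds beta-catenin (change 0.55, SE 0.22, limma adjusted p = 0.441). Bcl9l, a beta-catenin cofactor gene, had a change of 0.39 (SE 0.17). The core list's median change was 0.01.

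Markers of other cell types also differed between the animals. The 10 fibroblast markers were higher in 10 of 10 cases with array means of 10.39, 10.13 and 10.70 for controls against 11.54, 11.10 and 10.62 for mutants, and mutant 3 was below control 3. The 9 capsule markers were higher in 9 of 9, at 8.03 to 8.46 in controls and 8.66 to 9.09 in mutants, with Gli1, Gli2 and Wt1 dim. Smooth muscle markers were at 8.89 to 9.16 and 9.33 to 9.79 (7 of 9 higher), with Myh11, Cnn1 and Cspg4 dim. Adipocyte markers were at 7.65 to 10.51 and 8.79 to 11.99 (10 of 10 higher), with Lep dim. Markers of macrophages and other blood cells were at 7.87 to 8.19 and 8.14 to 8.52 (4 of 4 higher), with Adgre1 dim. The 7 chromaffin markers were higher in 0 of 7, at 13.42 to 14.55 in controls, of which control 2 was the highest, and 13.46 to 13.63 in mutants. The steroid cortex markers were higher in 2 of 9, at 18.05 to 18.12 and 17.92 to 18.09. Of these marker genes 0 passed the adjusted p. Their part in the members' values was not tested. The fits with a fibroblast or adipocyte covariate cannot separate cell content from the group difference, as both lists were higher in mutants. Mutant 1 had the highest fibroblast, smooth muscle, adipocyte, endothelial, blood-cell and mostly dim kidney means of the 6 animals. Of the 26 members above the background range, 9 were highest in it: Fzd1, Fzd2, Fzd4, Lrp6, Rspo3, Tcf7l1, Tcf7l2, Axin2 and Nkd1. A link between the marker means and these genes was not tested.

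**Figure D3:**
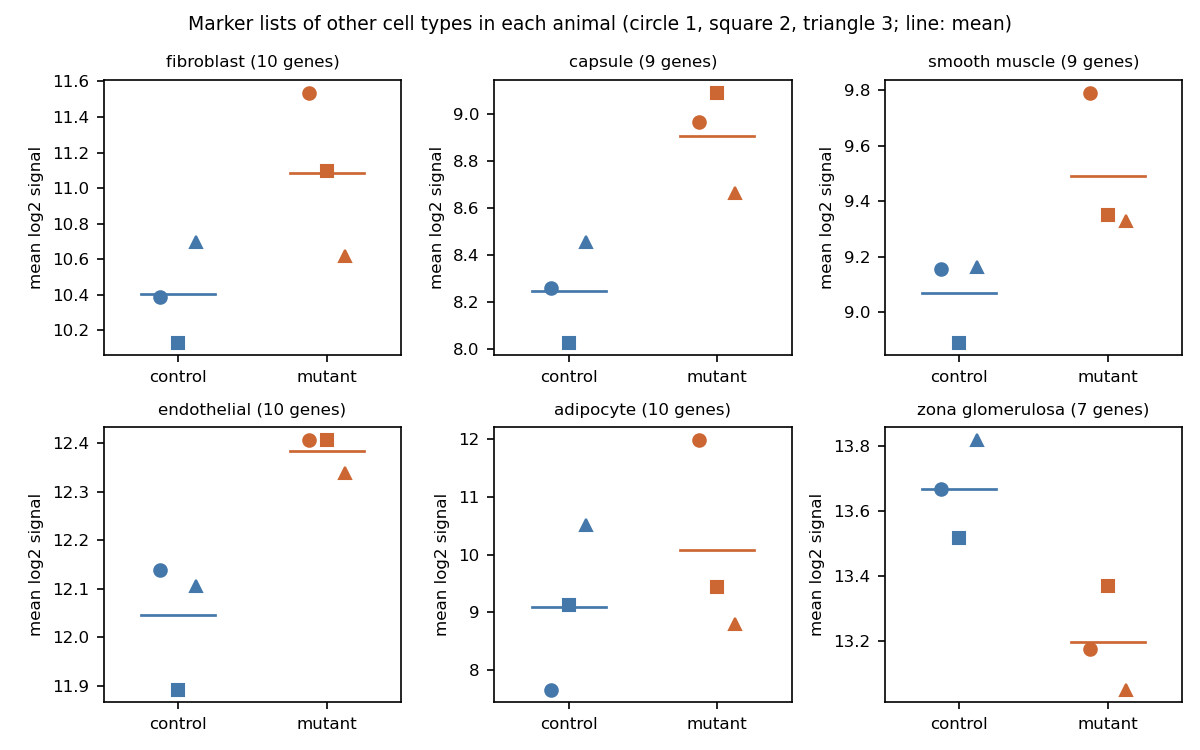
Each symbol is the mean log2 signal of a marker list in 1 animal, and each line the mean of a group. The capsule, smooth muscle and endothelial means of the mutants lie above those of the controls, the zona glomerulosa means below, and the fibroblast and adipocyte means overlap.

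Fitting each array's fibroblast mean as a covariate lowered the fitted changes of Fzd2, Fzd7 and Tcf7l1 and raised those of Wnt5a and Ror1, with wider SEs. Calls over all probe sets at the adjusted p went from 16 to 0 in that fit (limma). The covariate itself was higher in mutants, so the fit also takes up part of any group difference by construction. With it, the log2 change of Fzd2 went from 0.66 to 0.23 (SE 0.24), that of Fzd7 from 0.57 to 0.23 (SE 0.30) and that of Tcf7l1 from 0.52 to 0.24 (SE 0.22). Fzd4 went from 0.39 to 0.04 (SE 0.26), Axin2 from 0.30 to 0.03 (SE 0.23), Rspo3 from 0.26 to -0.32 (SE 0.23) and Tcf7l2 from 0.33 to -0.26 (SE 0.22). Among genes already below 0, Wnt2b went from -0.07 to -0.49 (SE 0.25), Ror2 from -0.12 to -0.44 (SE 0.38), Nkd1 from -0.02 to -0.38 (SE 0.29) and Znrf3 from -0.15 to -0.37 (SE 0.31). Wnt5a went from 0.66 to 0.99 (SE 0.33) and Ror1 from 0.72 to 0.84 (SE 0.40). In that fit 3 members had an unadjusted p under 0.05, Wnt5a, Wnt5b and Wnt9a, the last 2 dim, which is 6.12% of members beside 6.32% of all probe sets (limma). No adjusted p of a member was under 0.738 there. With the adipocyte mean as the covariate instead, the changes of Fzd2 and Fzd7 were both 0.50 (SE 0.16 and 0.24). Those of Tcf7l1 and Ror1 were 0.46 (SE 0.18) and 0.86 (SE 0.26). Fzd2, Ror1, Tcf7l1 and Wnt5a had an unadjusted p under 0.05 in that fit, 8.16% of members beside 8.61% of all probe sets (limma). Differences between the fits were not tested.

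**Figure D4:**
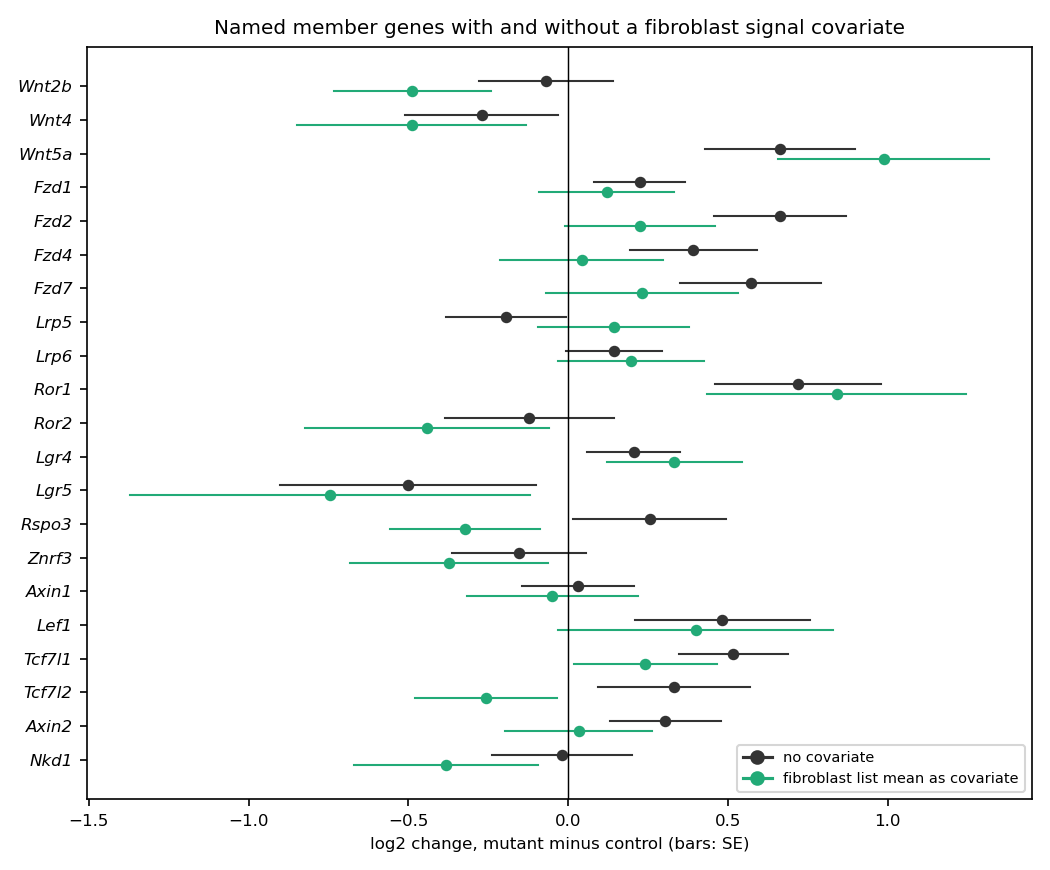
For named member genes above the background range, points are log2 changes (mutant minus control) without a covariate (dark) and with the fibroblast list mean as a covariate (green), and bars are SEs. Fzd2, Fzd4, Fzd7 and Tcf7l1 move toward 0. Rspo3, Tcf7l2 and Axin1 cross 0 downward and Lrp5 crosses it upward, and Wnt5a and Ror1 lie at 0.99 and 0.84 with wider bars.

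Leaving out single animals gave each leading member a range. The change of Fzd2 lay between 0.47 and 0.79, with an unadjusted p under 0.05 in all 6 such fits (limma). That of Wnt5a lay between 0.47 and 0.86, that of Ror1 between 0.49 and 0.94, that of Tcf7l1 between 0.44 and 0.67 and that of Fzd7 between 0.37 and 0.80. These 4 genes each had an unadjusted p above 0.05 in at least 1 of the 6 fits.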

How the data were processed

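The authors deposited a log2 signal for each probe set and animal. Transcriptome Analysis Console 4.0 is named in the submitters' processing notes, and how it corrected background, summarised and normalized is not stated there. Normalization that equalises the arrays would mask any change common to most genes. Groups came from the sample descriptions. Of 28846 probe sets, 6640 controls (5222 intron, 1324 exon, 94 spike or background) were left out, and 22206 were tested. The platform's annotation gave 1 symbol to 19572 of them and none to 2634.

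Mutant minus control was fitted on all 6 arrays without covariates by lmFit and eBayes (limma 3.58.1, R 4.3.3), two-sided, with Benjamini-Hochberg adjustment over all 22206 probe sets and a threshold of 0.05. The fit was tested on simulated data. SEs and intervals are limma's, and 3 animals a group limit the precision. Named members were those at an unadjusted p under 0.05, those whose groups did not overlap, and a fixed set. Fzd3, Fzd5, Fzd6, Fzd8, Fzd9, Ryk, Rspo2, Rspo4, Wnt5b and Wnt9a were added with their values in view. From each other list the 2 genes of smallest unadjusted p were named, and Cd44, Sfrp1 and Tnfrsf19 were added with their values in view. The members and lists were chosen with earlier results of these data known. Alternatives were other scalings, filters, variance models, a block for the replicate number, array weights, leaving out each animal, and intron, adipocyte or fibroblast signal as a covariate. Alternatives for Stk4 were added after seeing the data.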

Additional observations from a re-analysis of the deposited data

How the results depend on the processing

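In all 18 alternative fits 0 members passed an adjusted p of 0.05, and 0 did at an adjusted p under 0.1 or 0.2 without any other alternative (limma). The members at an unadjusted p under 0.05 (limma), 5 as reported, were 3 with the fibroblast covariate, 6.12% of members beside 6.32% of all probe sets. With single animals left out they were 3 to 8, or 6.12% to 16.3% of members, and the share of all probe sets was 7.63% to 11.6%. Among these, the fit without control 2 gave 7, or 14.3% beside 8.17%. Members whose groups did not overlap were 10 to 16 with an animal left out, where fewer animals separate more easily by construction: 24.1% to 30.2% of all probe sets did so. The median change of the members, 0.14, was 0.20 without dim probe sets and 0.089 to 0.20 with an animal left out. Other pathway genes past the threshold, 0 as reported, were 1 (Frzb) with quantile normalization, with a common median, with array weights, with only named probe sets and with a gene's probe sets averaged, 2 (Frzb and Wls) without dim probe sets or with trend, and 3 (with Apcdd1) with trend and robust.

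The sign was kept by 15 of the 26 members named by the rule in every alternative run, and the members added with their values in view were not followed singly. With the fibroblast covariate the sign turned for Axin1 (-0.049), Lrp5 (0.14), Nkd2 (-0.079), Rspo1 (-0.15), Rspo3 (-0.32), Tcf7l2 (-0.26) and Wnt11 (-0.083), with the adipocyte covariate for Axin1 (-0.027), Nkd2 (-0.0023), Rspo1 (-0.018) and Wnt11 (-0.019), and with the intron covariate for Nkd1 (0.015) and Rspo1 (-0.0068). With single animals left out the ranges that crossed 0 were -0.053 to 0.15 for Axin1, -0.15 to 0.22 for Nkd1, -0.028 to 0.13 for Nkd2, -0.38 to 0.064 for Ror2, -0.066 to 0.26 for Rspo1, -0.029 to 0.13 for Wnt11, -0.27 to 0.081 for Wnt2b and -0.27 to 0.056 for Znrf3. The cause was not tested. Deviations of same-numbered control and mutant animals had correlations of -0.09, 0.08 and -0.07 over probe sets, beside -0.10 to 0.16 for differently numbered ones. The labels name no pairing, and these correlations cannot exclude it. With the replicate block the members past the threshold were 0, those at an unadjusted p under 0.05 were 5, and calls over all probe sets went from 16 to 1.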

Other observations

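The animals contributed unequally to the members' values. Of the 26 members above the background range, 9 (34.6%) were highest in mutant 1, 8 (30.8%) in mutant 2 and 3 (11.5%) in mutant 3. Controls 1, 2 and 3 were highest for 1, 4 and 1 (3.85%, 15.4% and 3.85%). Tcf7l1 and Lef1 entered the 26 only through the mutant mean, which partly fixes these counts. Their highest animals were mutant 1 and mutant 2, and control 2 was the lowest for both. Over all 10355 probe sets above that range, the shares highest in mutants 1, 2 and 3 were 17.7%, 19.6% and 12.6%. In controls 1, 2 and 3 they were 18.5%, 15.3% and 16.4%. Control 2 was lowest for 8 of the 26 members (30.8%) and mutant 3 also for 8, beside 18.8% and 14.8% of the 10355 probe sets. Mutant 3, which was lowest for Rspo3, Nkd1, Znrf3 and Wnt4, was the highest animal for Fzd3, Fzd6 and Lgr4. These counts describe the 6 animals and were not tested.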
